A study of Mus musculus with 26 samples.

Results

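Slco3a1, Il15 and Serpinf1 are 3 of the 18378 genes with a symbol on the arrays used here, and they are measured by 4 of the 41174 probes. The rule chose them for a lower level after the loss of CD34 or for a partial return of that level under erythropoietin (Epo), the hormone that drives red cell formation. They were thus selected on measured levels of these same arrays, and every difference that involves CD34 loss or Epo is given below as a description, with its standard error (SE) and without a test. Slco3a1 and Il15 have 1 probe each and Serpinf1 has 2, and all 4 probes passed the filter on dim probes in each set of arrays.

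Slco3a1 encodes a multi-pass membrane transporter of the organic anion transporting family, whose reported substrates include prostaglandins and thyroid hormone. Il15 encodes interleukin-15, a cytokine of the common gamma chain group that is presented on the interleukin-15 receptor alpha chain to cells carrying the beta and gamma chains, and that supports natural killer cells and memory T cells. Serpinf1 encodes pigment epithelium-derived factor (PEDF), a secreted serpin that does not inhibit proteases and is known for blocking the growth of blood vessels. CD34 is a sialomucin on the surface of early blood progenitors.

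EML is a multipotent blood progenitor line of the mouse that needs stem cell factor (SCF), and here it was grown in IMDM with horse serum and SCF-conditioned medium. All 8 groups have this line as their origin in the labels, with the titles of the third set reading EMLe2, a name the labels do not explain. The cells were separated by flow cytometry, with sorting on Sca1, CD34 and cKit named for the series, and total RNA was hybridised to Agilent arrays in 1 colour. The first set of 9 arrays held Sca1hi, CR Sca1lo and EryCP cells (3 arrays each). A second set of 6 arrays compared a repeat of EryCP (3 arrays) with Ediff (3 arrays), the CD34-negative, cKit-negative cells that arose when EryCP cells were differentiated with Epo. The third set of 11 arrays held cells labelled CD34+ CD103- (4 arrays), CD34- CD103- (4 arrays) and CD34- CD103- Epo (3 arrays), the last from Epo-driven erythroid differentiation of the CD34- CD103- fraction. Epo dose and time, the gates, and whether the Epo cells of the third set were sorted again, are not stated in the labels. As a model, the line is 1 cell line in culture, and the labels do not say that the arrays of a group came from separate cultures, so each SE and p-value measures only the spread between these samples, which may be technical.

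Levels are the log2 processed signal of a probe minus the 75th percentile of its array, so a level of 0 is a signal at that percentile. The 75th percentile lay between 425.3 and 1247 signal units, 76% to 93.8% of probes were well above background, and no spot was saturated. Replicate arrays correlated at r of 0.968 to 0.993 across probes. Levels are compared only within a set, because sets were on different slides, and never between probes. The sorted markers were mostly where the labels put them: Ly6a, which encodes Sca1, was 47.3-fold lower in CR Sca1lo than in Sca1hi. Exceptions lay in the third set. Cd34 RNA was only 3.44-fold lower in the cells labelled CD34-. Itgae, which encodes CD103, was 2.89-fold higher in CD34- CD103- than in CD34+ CD103- cells without overlap, although both are labelled CD103-. Against CD34- CD103- cells, limma called none of 12 erythroid markers higher in the Epo cells, beside 0.687% of all genes. At an unadjusted p under 0.05 by limma, 0 were higher and 6 lower. Against CD34+ CD103- cells 7 of the 12 were called higher and none lower, beside 2.57% and 2.94% of all genes. In bulk RNA, fewer cells that express a gene and less RNA per cell cannot be told apart.

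On mouse assembly GRCm38.p6, Slco3a1 spans 279 kb at chr7:74275418-74554780, Il15 spans 71.6 kb at chr8:82331624-82403252, Serpinf1 spans 12.6 kb at chr11:75410029-75422623, and Cd34 spans 22.5 kb at chr1:194938821-194961292. Of the 3 genes, 1 matched the RefSeq promoter table (Serpinf1), and its promoter is shown beside that of Cd34. Cd34 was taken because it ranked 3 among all genes by correlation with probe A_51_P517075 of Serpinf1 across the arrays. Each sequence runs 5′ to 3′ from 250 bases before to 50 bases after the start of the gene (GRCm38.p6, chr11:75422574-75422873, minus strand, and chr1:194938571-194938870, plus strand). Capitals mark matches to the 4 motifs searched on both strands: the GATA box GATAA, the CACCC box CACCC, the E box CANNTG and the RUNX site TGTGGT.
Serpinf1: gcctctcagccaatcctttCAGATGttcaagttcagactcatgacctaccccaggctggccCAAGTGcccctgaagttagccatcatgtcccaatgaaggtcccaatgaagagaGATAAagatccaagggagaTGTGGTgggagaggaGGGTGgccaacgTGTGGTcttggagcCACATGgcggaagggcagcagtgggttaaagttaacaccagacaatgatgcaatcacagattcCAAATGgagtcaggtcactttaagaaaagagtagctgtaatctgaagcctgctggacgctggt
Cd34: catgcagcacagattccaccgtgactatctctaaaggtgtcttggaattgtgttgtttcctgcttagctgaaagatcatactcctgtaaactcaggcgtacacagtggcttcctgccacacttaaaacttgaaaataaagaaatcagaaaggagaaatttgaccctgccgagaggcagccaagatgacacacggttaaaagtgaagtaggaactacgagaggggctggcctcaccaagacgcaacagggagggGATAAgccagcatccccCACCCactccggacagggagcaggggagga
The Serpinf1 promoter held 1 GATAA at position -136 from the start, 1 CACCC at -102 on the opposite strand, 4 E boxes at -231, -189, -76 and -13, and 2 RUNX sites at -117 and -90. The Cd34 promoter held 1 GATAA at position 4, 1 CACCC at position 21, and no match to the E box or the RUNX site in this window. No match overlapped another. Among all 32851 promoters of this length, 25.4% held GATAA, 57.5% CACCC, 72.3% the E box and 16.8% the RUNX site. A match of letters is a description and not a site of binding.

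CR Sca1lo against Sca1hi is the one comparison in which neither CD34 loss nor Epo separates the groups, and it was tested. Its arrays are also the higher side of the EryCP comparisons, where Cd34 was far lower. The choice of the genes may favour high levels on these arrays, so the test is not fully independent of that choice. Cd34 RNA itself was 1.35-fold lower in CR Sca1lo, without overlap. Il15 was 1.94-fold higher in CR Sca1lo, Slco3a1 lay 1.51-fold above and Serpinf1 1.35-fold below its Sca1hi level, and only the Il15 difference passed the test. Il15 levels were -1.99, -2.26 and -2.50 in Sca1hi and -1.28, -1.18 and -1.44 in CR Sca1lo. All 3 CR Sca1lo arrays lay above all 3 Sca1hi arrays. The log2 difference of Il15 was 0.95 ± 0.17 (SE, 3 against 3 arrays; adjusted p = 0.0204, limma with Benjamini-Hochberg adjustment over 26191 genes), and it ranged from 0.82 to 1.06 within the 3 slides. In this comparison 1.21% of genes were called higher and 2.41% lower.

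Slco3a1 stood at 5.24, 5.04 and 4.81 in Sca1hi and at 5.67, 5.71 and 5.49 in CR Sca1lo. These groups did not overlap either. The difference was 0.59 ± 0.19 (SE) with an adjusted p of 0.168 by limma, so it did not pass, while with slide as a block it did (adjusted p = 0.00528). Groups that do not overlap with a higher level were found for 2 of the 3 genes (Il15 and Slco3a1), and for 10.6% of all genes tested.

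Serpinf1 is read by probes A_51_P517075 and A_52_P35048, called the first and second probe from here on. The first probe gave 3.8, 3.73 and 3.37 in Sca1hi and 3.19, 3.44 and 2.98 in CR Sca1lo, and the groups overlapped. The second probe gave 1.46, 1.49 and 1.29 against 1.09, 1.01 and 1.00, with every CR Sca1lo array below every Sca1hi array. The difference was -0.43 ± 0.23 (SE, adjusted p = 0.536, limma) by the first probe and -0.38 by the second, and with slide as a block the first probe passed (adjusted p = 0.0357). Serpinf1 thus lay on the same side as Cd34, whose log2 difference was also -0.43, and on the other side from Il15 and Slco3a1. The Il15 call was lost under normexp background correction (log2 difference 0.43, adjusted p = 1), quantile normalization, the deposited value table and a trended, robust variance, and when Sca1hi array 2 or 3 or CR Sca1lo array 1 or 2 was left out (adjusted p from 0.0629 to 0.108).

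**Figure D1:**
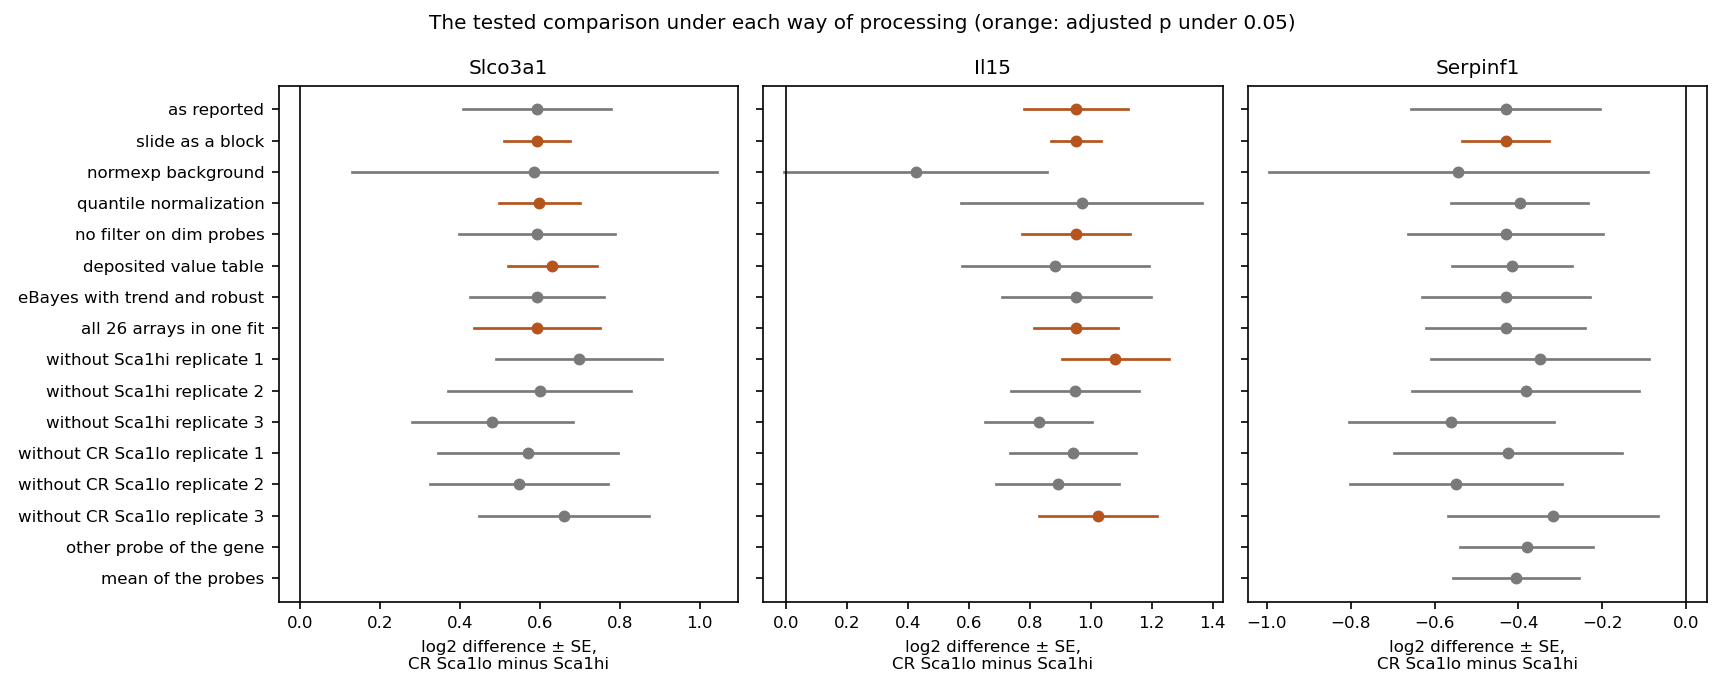
Log2 difference (x axis) of Il15, Slco3a1 and Serpinf1 between CR Sca1lo and Sca1hi under each way of processing (y axis); points are the difference, bars its SE, and orange marks an adjusted p under 0.05. Il15 and Slco3a1 stay above 0 and Serpinf1 below 0 in every line, while the colour changes with the processing.

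From CR Sca1lo to EryCP all 3 genes were lower, by 8.13-fold to 9.35-fold, and no EryCP array reached the level of any CR Sca1lo array. EryCP cells had 26.3-fold less Cd34 RNA than CR Sca1lo. The EryCP levels of Slco3a1 were 2.56, 2.10 and 2.53, all far below the 5.49 to 5.71 of CR Sca1lo. The log2 difference of Slco3a1 was -3.23 ± 0.19 (SE, 3 against 3 arrays), and it was -3.39 to -3.11 within the 3 slides. Il15 levels in EryCP were -4.54, -4.57 and -4.38, with signals of 28.4 to 42 units that were still well above background on 3 of 3 arrays. The Il15 difference was -3.20 ± 0.17 (SE, 9.19-fold). Both genes were at their highest in CR Sca1lo and at their lowest in EryCP within this set.

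The first Serpinf1 probe gave 0.47, -0.20 and 0.27 in EryCP, and the second gave -1.20, -0.90 and -1.36. Neither probe overlapped its CR Sca1lo values. The difference was -3.02 ± 0.23 (SE, 8.13-fold) by the first probe and -2.19 (4.55-fold) by the second. Groups that do not overlap with a lower level made up 3 of 3 genes here, as the choice of these genes fixes, and 9.95% of all genes tested. Ranked from the lowest log2 difference of 26191 genes, Cd34 was at 1, Slco3a1 at 4, Il15 at 6 and Serpinf1 at 12.

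Against Sca1hi, the order of the 3 genes in EryCP changed. Serpinf1 was 11-fold lower by the first probe (log2 difference -3.45) and 5.92-fold lower by the second, Slco3a1 was 6.2-fold lower (-2.63) and Il15 was 4.75-fold lower (-2.25). In this comparison too no array overlapped for the 3 genes, as for 8.9% of all genes in the lower direction. Cd34 was 35.5-fold lower. Within this set the Serpinf1 levels went from Sca1hi through CR Sca1lo to EryCP in falling order, as those of Cd34 did, whereas Slco3a1 and Il15 were highest in CR Sca1lo. The first 2 places of the Serpinf1 order overlapped by the first probe, although CR Sca1lo was the lower one on each of the 3 slides (differences of -0.54 to -0.36).

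**Figure D2:**
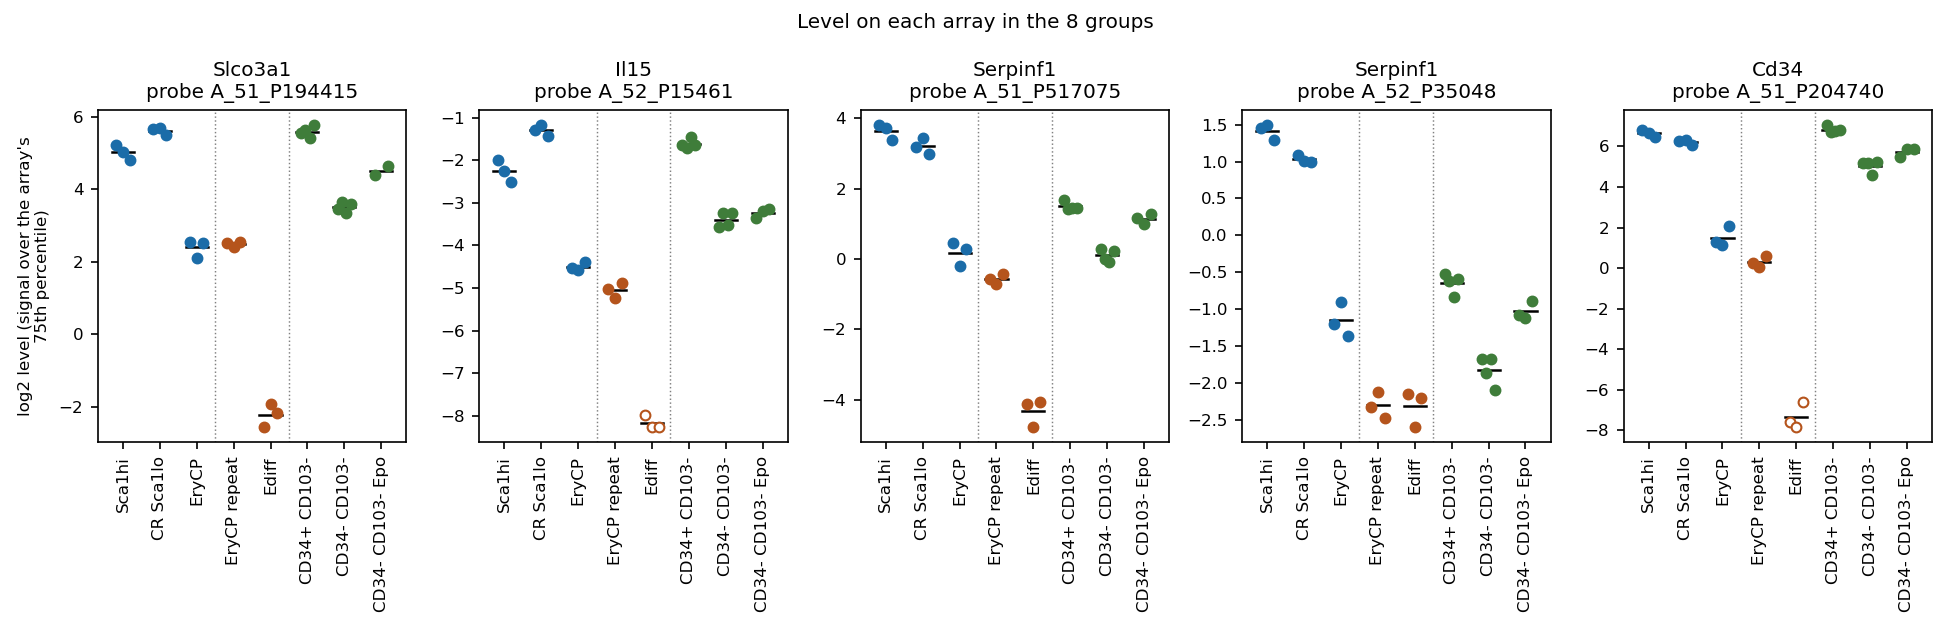
Log2 level on each array (y axis, log2 signal minus the array's 75th percentile) for each probe of the 3 genes and Cd34 in the 8 groups (x axis), coloured by array set; lines are group means and open circles are spots not well above background. EryCP lies below Sca1hi and CR Sca1lo in every panel, and Ediff lies below the EryCP repeat in every panel but that of the second Serpinf1 probe, where they overlap.

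In the third set, the loss of CD34 went with a lower level of all 3 genes, and the drop was 4.25-fold for Slco3a1, 3.42-fold for Il15 and 2.62-fold for Serpinf1. The cells labelled CD34- kept part of their Cd34 RNA, at 5.17, 5.18, 4.59 and 5.25 against 7.04, 6.72, 6.77 and 6.80 in CD34+ CD103- cells. Slco3a1 levels were 5.56, 5.63, 5.42 and 5.77 in CD34+ CD103- cells and 3.45, 3.64, 3.35 and 3.59 in CD34- CD103- cells. Within each group the Slco3a1 arrays stayed within a narrow band, and the bands were far apart. The log2 difference was -2.09 ± 0.11 (SE, 4 against 4 arrays), with -2.36 to -1.80 within the 3 slides.

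Il15 levels were -1.65, -1.72, -1.45 and -1.65 in CD34+ CD103- cells and -3.57, -3.23, -3.53 and -3.24 in CD34- CD103- cells. Here the highest CD34- array lay below the lowest CD34+ array. The difference was -1.77 ± 0.11 (SE), beside -1.78 for Cd34 itself. The first Serpinf1 probe gave 1.67, 1.42, 1.46 and 1.46 against 0.29, -0.0040, -0.076 and 0.24. The second probe gave -0.52, -0.62, -0.84 and -0.60 against -1.67, -1.86, -1.68 and -2.10. Both probes put all CD34- arrays below all CD34+ arrays, with differences of -1.39 ± 0.11 (SE) and -1.18. Groups did not overlap for 3 of 3 genes, as chosen, and for 9.74% of all genes in the lower direction. From the lowest of 27075 genes, Slco3a1 ranked 6, Cd34 31 and Il15 32, and 0.392% of genes ranked below Serpinf1.

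Under Epo the 3 genes parted. Slco3a1 was 2.01-fold and Serpinf1 2.05-fold higher in CD34- CD103- Epo cells than in CD34- CD103- cells, while Il15 differed by 1.12-fold and its groups overlapped. Slco3a1 levels in the Epo cells were 4.39 and 4.64 on arrays 1 and 3. On array 2 the spot was marked as outlying by the scanner software and was left out, although its level was also 4.39. The Epo arrays thus lay between the CD34- cells (3.35 to 3.64) and the CD34+ cells (5.42 to 5.77) without touching either. The log2 difference of Slco3a1 from CD34- CD103- cells was 1.01 ± 0.13 (SE, 2 against 4 arrays).

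The first Serpinf1 probe gave 1.17, 0.98 and 1.29 in the Epo cells and the second gave -1.08, -1.12 and -0.89. Both probes placed every Epo array above every CD34- array and below every CD34+ array. The difference from CD34- CD103- cells was 1.04 ± 0.12 (SE, 3 against 4 arrays) by the first probe and 0.80 (1.74-fold) by the second. Il15 gave -3.36, -3.19 and -3.15 in the Epo cells, inside or just above the range of the CD34- cells. Its difference was 0.16 ± 0.12 (SE), and it was 0.31 to 0.34 within the 2 slides that held both groups. Groups that did not overlap with a higher level were seen for Slco3a1 and Serpinf1, 2 of the 3 genes, and for 11.7% of all genes.

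Set against the loss between CD34+ CD103- and CD34- CD103- cells on the log2 scale, the share that had returned in the Epo cells was 74.5% for Serpinf1 by the first probe and 67.2% by the second. It was 48.3% for Slco3a1, 39.2% for Cd34 and 8.97% for Il15, and with slide as a block the Il15 share was 16.4%. Leaving out CD34- CD103- array 1 brought the Il15 share to 5.89%. Relative to CD34+ CD103- cells, Il15 stayed 3.06-fold lower, Slco3a1 2.11-fold lower and Serpinf1 1.28-fold lower by the first probe and 1.31-fold by the second. All 4 probes kept the Epo arrays below the CD34+ arrays, as 9.22% of all genes did. These 3 comparisons share their groups, so the loss and the return are not independent of each other. Cd34 was 1.62-fold higher in the Epo cells than in CD34- CD103- cells.

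**Figure D3:**
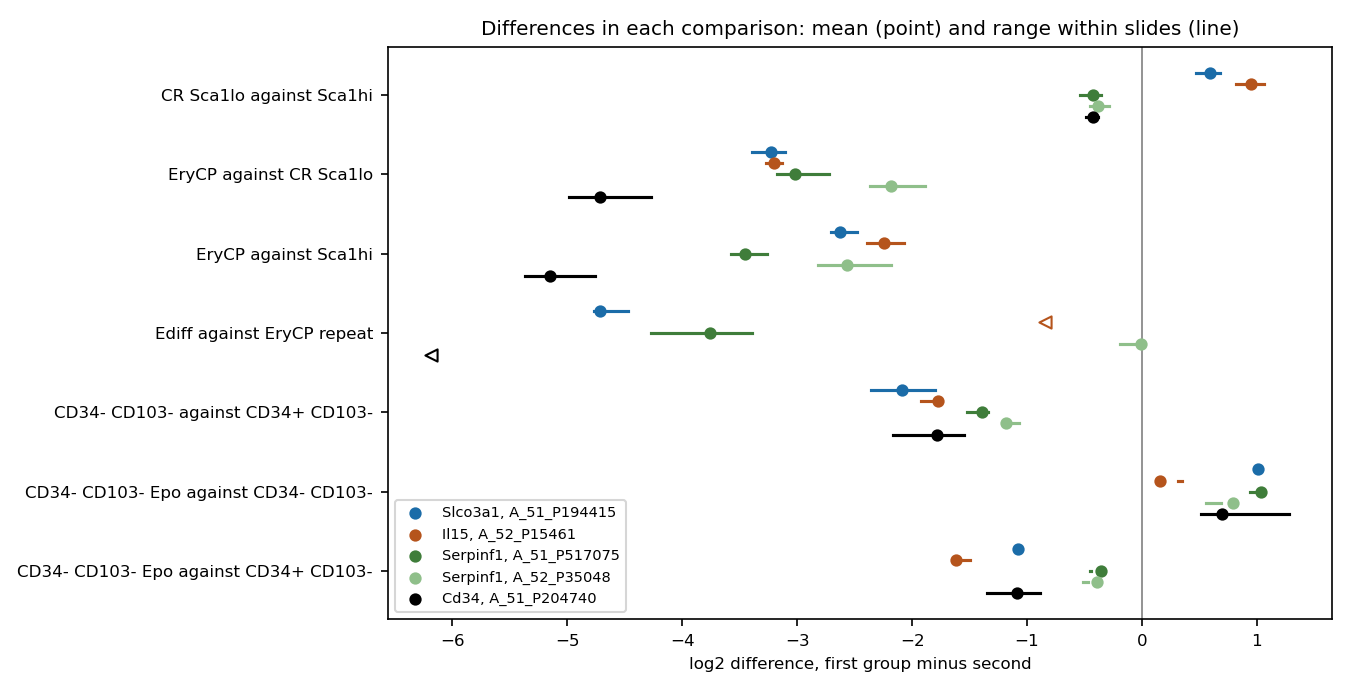
Log2 difference (x axis) of each probe of the 3 genes and Cd34 in each comparison; points are the mean difference, lines the range of the differences within slides that held both groups, and open triangles the smallest drop for Il15 and Cd34 in Ediff, where they were not well above background. The probes lie left of 0 in EryCP and after CD34 loss, and right of 0 under Epo in the third set, where Il15 stays nearest to 0.

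Ediff cells, which came from EryCP cells by Epo-driven differentiation and a sort for loss of CD34 and cKit, had the lowest levels of Slco3a1 and Il15 in their set. The median log2 difference of all genes was 0.46 in this comparison, so that a gene at 0 lies below the typical gene. Slco3a1 gave 2.53, 2.41 and 2.54 in the EryCP repeat and -2.55, -1.94 and -2.18 in Ediff. The groups were far apart. The log2 difference of Slco3a1 was -4.71 ± 0.17 (SE, 3 against 3 arrays, 26.2-fold), with -4.77 to -4.47 within the 2 slides.

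Il15 was well above background on 3 of 3 arrays of the EryCP repeat, at -5.01, -5.23 and -4.87, and on 0 of 3 Ediff arrays. Ediff therefore has only a bound for this gene. Il15 was at least 1.8-fold lower in Ediff, taking the lowest signal well above background on each Ediff array as its level there, while the measured means were -8.16 and -5.04. Cd34 was likewise not well above background in Ediff and was at least 73-fold lower. Under normexp background correction the Il15 difference turned to 0.36, and in the deposited value table the drop was smaller than the bound. The bound thus holds only for the processing used here.

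The probes of Serpinf1 disagreed in Ediff. By the first probe the levels were -0.57, -0.70 and -0.41 in the EryCP repeat and -4.12, -4.76 and -4.07 in Ediff, without overlap and 13.5-fold lower. By the second they were -2.32, -2.12 and -2.47 against -2.15, -2.59 and -2.21, which overlap. The second probe differed by -0.01 ± 0.16 (SE) and is the one with the higher mean in this set. Its Ediff signals of 72.8 to 104 units were well above background on 3 of 3 arrays. Groups that did not overlap with a lower level were found for Slco3a1, Il15 and, by the first probe only, Serpinf1, and for 19.4% of all genes.

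Direction under Epo thus differed between the sets for Slco3a1 and for the first Serpinf1 probe: lower in Ediff than in EryCP, higher in the Epo cells than in CD34- CD103- cells. The sets differ in starting cell, in sort and in slides, and this difference was not tested.

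The calls of pathway genes below held to different degrees under the 7 other ways of processing. After CD34 loss 22 to 24 of 24 calls held, with normexp correction among these ways. In the first set and in Ediff normexp correction ended nearly all calls, leaving 0 of 11 in CR Sca1lo against Sca1hi, 1 of 19 in EryCP against CR Sca1lo (Serpina3f) and 3 of 62 in Ediff (Cish, Serpinb1a and Slc7a8). The 6 other ways kept 10 to 11, 16 to 19 and 48 to 62 of these. Under Epo in the third set 6 of 9 calls held with normexp and 7 to 9 with the others.

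The other genes of the interleukin-15 pathway, a list of 14 genes besides Il15 itself, were measured in each comparison. None was called by limma in CR Sca1lo against Sca1hi, where Il15 rose, and 0 of 14 had an unadjusted p under 0.05 (list median -0.05, all genes 0.03). In EryCP against CR Sca1lo 3 of 14 fell and none rose, where 2.25% of all genes fell and 2.73% rose (list median -0.19, all genes -0.07). Those were the transcription factor Stat3 (-1.77 ± 0.19), the gamma chain kinase Jak3 (-1.17 ± 0.20) and the PI3-kinase regulatory subunit Pik3r1 (-0.83 ± 0.19), with adjusted p of 0.00103, 0.0118 and 0.0487 by limma. With each of the 6 arrays left out in turn the Stat3 call held 6 times, that of Jak3 4 times and that of Pik3r1 1 time, and the Pik3r1 call was also lost without the filter on dim probes. In CD34- against CD34+ cells 4 of 14 fell and none rose (6.85% and 5.69% of all genes), among them Stat3 (-0.88), Jak3 (-0.76) and the shared receptor chain Il2rg (-0.50). In Ediff 9 fell and 2 rose, against 16.9% of all genes lower and 39.8% higher. Jak3 (-2.79), Il2rg (-2.28) and the adaptor Grb2 (-1.77) moved most there, from a list median of -0.62.

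The chains that bind interleukin-15 most directly moved little. Il15ra, which presents the cytokine, differed by 0.02 in CR Sca1lo, by -0.17 in EryCP and by 0.33 after CD34 loss, and none of these passed (limma adjusted p of 1, 1 and 0.634). In Ediff, where Il15 was lost to background, Il15ra rose by 0.74 ± 0.22 (SE, adjusted p = 0.0302, limma), close to the all-gene median of 0.46, and that call held in 1 of 6 fits with an array left out. The beta chain gene Il2rb passed in none of these comparisons, nor under Epo in the third set. Under Epo 1 of 14 genes rose and none fell, with 0.687% of all genes higher and 1.91% lower. It was the kinase Jak1 (0.38 ± 0.08), a call that was lost with slide as a block and under quantile normalization, normexp correction, the deposited value table and one fit of all arrays.

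Factors and pathways known to raise Il15 transcription, such as interferon regulatory factors, moved in mixed directions. Irf1, an interferon-induced activator, fell in EryCP against CR Sca1lo (-1.22 ± 0.17), after CD34 loss (-0.88 ± 0.10) and in Ediff (-3.11 ± 0.09). It was the only 1 of 9 measured genes of that list to fall in the first 2 of these comparisons, beside Nfkb2, which rose by 0.75 in EryCP, a call that was lost whichever of the 6 arrays was left out. Of all genes 2.25% fell in EryCP against CR Sca1lo and 6.85% after CD34 loss. In CR Sca1lo against Sca1hi, where Il15 was higher, 2 of 9 fell (Irf7, -1.33, and Relb, -1.22) and none rose. There 2.41% of all genes fell and 1.21% rose. Under Epo only Stat2 changed (-0.50).

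Of 7 other measured cytokines and receptors of the common gamma chain group, 2 fell in CR Sca1lo, 1 rose in EryCP and 2 rose after CD34 loss. The shares over all genes were 2.41% lower, 2.73% higher and 5.69% higher in turn. Il7r, the interleukin-7 receptor, fell in CR Sca1lo (-3.59 ± 0.30) and rose after CD34 loss (2.61 ± 0.33), opposite to Il15 in both. Il4 fell by 1.95 in CR Sca1lo and rose by 0.88 after CD34 loss. Under Epo Il7r fell by 3.88, Il4 fell by 0.67, and those were the only 2 of the 7 genes measured that passed. Of all genes 1.91% fell there. Among the feedback genes of cytokine signalling, the STAT5 target Cish rose in EryCP (1.94), after CD34 loss (1.23) and in Ediff (4.44), and fell under Epo in the third set (-0.44, a call kept in 2 of 7 fits with an array left out). Socs3, an inhibitor of cytokine signalling, fell in CR Sca1lo (-2.42), in EryCP (-1.92) and after CD34 loss (-0.66), and rose in Ediff (3.39).

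The family of Slco3a1 had 7 other measured genes. None was called by limma in CR Sca1lo against Sca1hi, in EryCP against CR Sca1lo or under Epo in the third set, and 0, 1 and 0 of them had an unadjusted p under 0.05. Over all genes 0.687% to 2.73% were called in each direction of those 3 comparisons. After CD34 loss Slco4a1, a thyroid hormone transporter, was the only 1 of 7 called, at -0.57 ± 0.10 (SE, adjusted p = 0.00302, limma). Slco3a1 differed by -2.09 there, and 6.85% of all genes were called lower. In Ediff Slco4a1 fell 58.7-fold, while 3 of the 6 measured there rose, near the 39.8% of all genes that did. Among them were the prostaglandin transporter Slco2a1 (0.84) and Slco1a4 (0.67), beside an all-gene median of 0.46, and both calls were lost under normexp and in one fit of all arrays.

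Genes of prostaglandin synthesis, export and response, which act on or beside reported Slco3a1 substrates, were called in both directions. After CD34 loss 3 of 17 rose and 3 fell, beside 5.69% and 6.85% of all genes. The inducible cyclooxygenase Ptgs2 rose by 2.00 ± 0.24 and the prostaglandin D synthase Hpgds by 1.37 ± 0.12, while the thromboxane synthase Tbxas1 fell by 1.26, and under Epo Hpgds fell by 1.35 and Tbxas1 rose by 0.73. The same enzymes moved in EryCP against CR Sca1lo: Ptgs2 rose by 1.88, Hpgds rose by 1.82 and Tbxas1 fell by 1.42. Ptgs2 and Tbxas1 were read there by other probes than after CD34 loss. In Ediff Hpgds was at least 85.9-fold lower and Ptgs2 at least 13.1-fold lower. In EryCP, after CD34 loss and under Epo, Tbxas1 changed in the direction of Slco3a1, while Hpgds changed in the opposite one.

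Of the thyroid hormone genes 5 of 11 rose and none fell after CD34 loss, where Slco3a1 was lower. Over all genes 5.69% rose and 6.85% fell there. The amino acid and thyroid hormone transporter Slc7a5 (1.23), the receptor Thra (0.88) and the transporter Slc16a10 (0.64) were the largest. In EryCP against CR Sca1lo 2 of 11 rose, Slc7a5 (1.37) and Thra (1.15), and none fell (2.73% and 2.25% of all genes). Under Epo, where 1.91% of all genes fell, Thra fell by 0.39 and no other gene of the list passed. That call was lost under normexp and in one fit of all arrays, and held in 1 of 7 fits with an array left out.

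Among the relatives of Serpinf1, its family member and chromosomal neighbour Serpinf2, which encodes alpha-2-antiplasmin and lies 9.11 kb away, was not called in any comparison but Ediff, where it rose by 0.68, near the all-gene median, in a call that 3 of the 7 other ways of processing ended. Of 15 measured serpins besides Serpinf1, Serpinb1a, an inhibitor of neutrophil proteases, changed most often. It fell in CR Sca1lo (-1.24), rose in EryCP (1.90) and after CD34 loss (1.4), and fell under Epo (-0.52) and in Ediff (-7.93). It was the only serpin of the list called after CD34 loss or under Epo, each time in the direction opposite to Serpinf1. Over all genes 5.69% rose after CD34 loss and 1.91% fell under Epo, so 1 call among 15 is near the first share. In CR Sca1lo 3 of 15 fell, beside 2.41% of all genes. In EryCP against CR Sca1lo 1 rose and 1 fell (2.73% and 2.25% of all genes). Of 14 measured in Ediff 6 rose and 4 fell, beside 39.8% and 16.9% of all genes. The Serpinb1a call in CR Sca1lo held in 3 of 6 fits with an array left out. Serpina3f fell in CR Sca1lo (-1.14), a call kept in none of 6 such fits, and in EryCP (-2.87), a call kept in all 6.

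Receptors and partners of PEDF were mostly not called. The lipase and reported PEDF receptor Pnpla2 passed in none of the comparisons (difference of -0.12 after CD34 loss and 0.21 under Epo). Flt1, a receptor for vascular endothelial growth factor, fell in CR Sca1lo (-1.37), EryCP (-0.97) and after CD34 loss (-0.63). Vegfa, the growth factor that PEDF is known to counter, rose after CD34 loss by 1.75 ± 0.16 (SE, adjusted p = 3.24e-05, limma) and in Ediff by 3.01, where 7 of 10 genes of the list rose beside 39.8% of all genes. Vegfa was read by different probes after CD34 loss and in Ediff. Under Epo none of the 10 was called by limma, and 2 had an unadjusted p under 0.05.

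**Figure D4:**
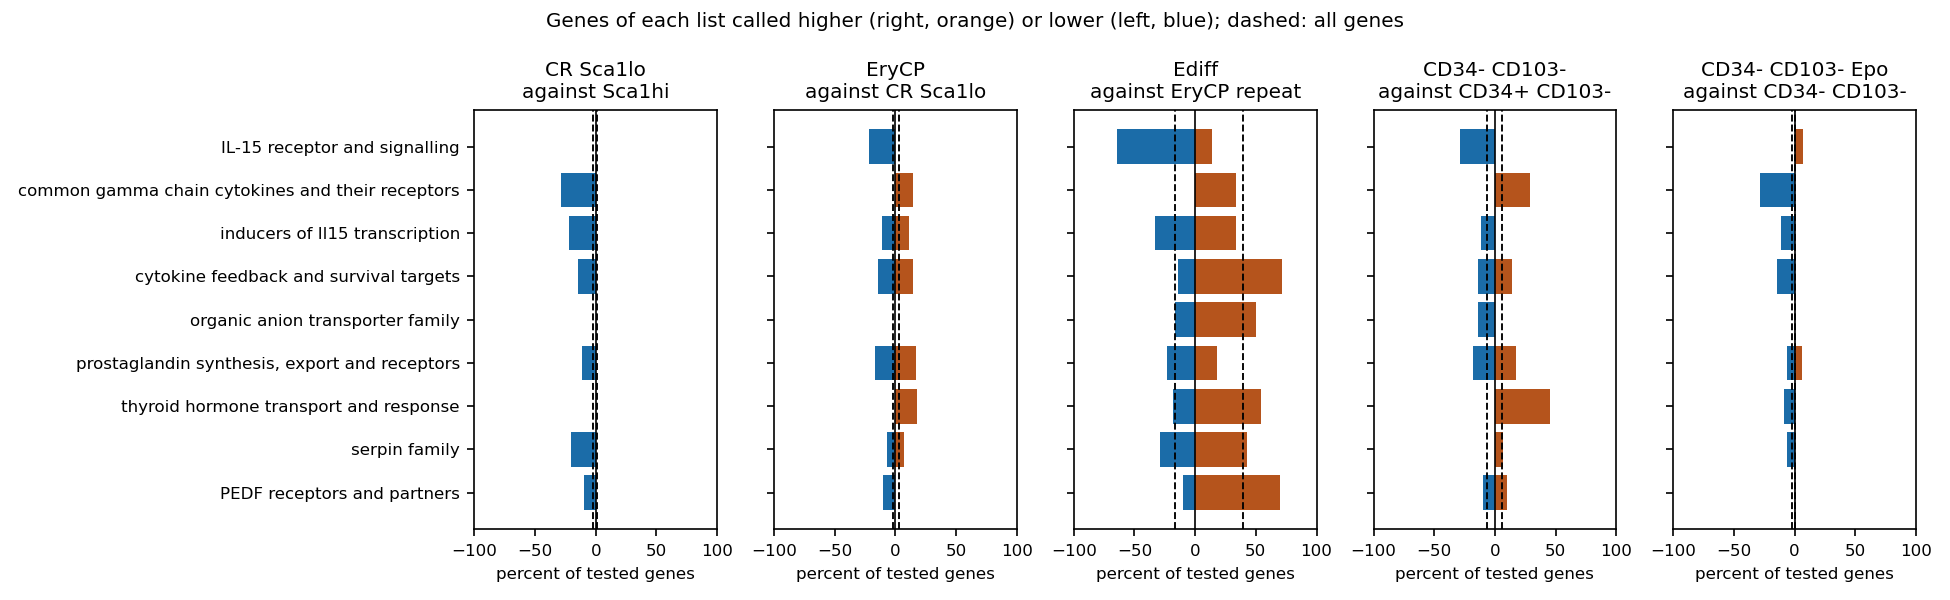
Percent of the measured genes of each pathway list called higher or lower at an adjusted p under 0.05 (x axis), by comparison; dashed lines give the same percent over all genes. Outside Ediff each list holds few calls, but the bars of several small lists pass the dashed lines. The thyroid hormone list holds its calls on the higher side after CD34 loss.

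By Pearson correlation over the 26 arrays (25 for Slco3a1), with each set centred, the named genes with the pattern most like Slco3a1 were Acot11 (r = 0.988), Pglyrp2 (0.984), B3gnt5 (0.984), Sh2d5 (0.981) and Clnk (0.977). Pglyrp2, for example, had mean levels of 2.40 in CD34+ CD103- cells, 0.85 in CD34- CD103- cells and 1.62 in the Epo cells. Nearest to Il15 were B3gnt5 (0.973), Matn2 (0.970), the DNA methyltransferase Dnmt3b (0.968), the integrin Itgam (0.968) and Csad (0.966). Nearest to Serpinf1 were Nrgn (0.988), the transcription factor Runx2 (0.980), Cd34 (0.975), the nucleotide receptor P2ry2 (0.972) and Hadh (0.969). All correlations of Serpinf1, here and below, are those of its first probe. The second probe did not share the drop of the first in Ediff, and its correlations were not computed.

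Cd34 itself ranked 3 of 23634 genes for Serpinf1, 15 for Slco3a1 and 58 for Il15. Kit ranked between 2114 and 2757 for the 3 genes, Ly6a between 2282 and 3946, and Itgae between 6109 and 8409. Slco3a1 and Il15 correlated at 0.964, Slco3a1 and Serpinf1 at 0.954, and Il15 and Serpinf1 at 0.916. These correlations describe arrays that share sets, slides and groups, and the large drop in Ediff, where Il15 and Cd34 were not well above background, weighs on all of them. The 3 genes were chosen on these arrays for a fall with CD34 loss or a return under Epo. That choice favours high correlations with Cd34 and among the 3 genes. By Spearman's rho over the same arrays the 5 nearest genes shared 1 with those above for Slco3a1, 1 for Il15 and 4 for Serpinf1. Within the third set alone the genes nearest to each member were others: none of the 5 was shared for Slco3a1 and Serpinf1, and 1 for Il15.

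Markers of other lineages also moved, some with the 3 genes and some against them. Summed levels are the log2 of summed signals, so bright markers weigh most. The summed level of 8 macrophage and neutrophil markers was lower in EryCP, after CD34 loss and in Ediff. The 3 genes were lower there too, Serpinf1 in Ediff by the first probe only. Under Epo the sum lay above its CD34- CD103- range, where Il15 overlapped. From Sca1hi to CR Sca1lo, where Serpinf1 was lower, the ranges of the sum overlapped. It was 7.88 to 8.33 in Sca1hi, 8.25 to 8.81 in CR Sca1lo and 5.83 to 6.54 in EryCP. It was 5.69 to 5.92 in the EryCP repeat and 0.85 to 1.07 in Ediff, and 8.52 to 8.85, 7.56 to 7.78 and 7.95 to 8.29 in CD34+ CD103-, CD34- CD103- and Epo cells. The granule enzyme Mpo fell after CD34 loss (-1.28 ± 0.11) and rose under Epo (0.72 ± 0.11), whereas S100a8 and S100a9 moved the opposite way in both. After CD34 loss 2 of the 8 markers fell and 3 rose, where 6.85% of all genes fell and 5.69% rose. Under Epo 4 fell and 1 rose (1.91% and 0.687% of all genes). The sum and these counts thus differ in direction in both comparisons. In EryCP against CR Sca1lo 2 markers fell and 2 rose (2.25% and 2.73% of all genes). S100a8 was not well above background in Sca1hi, nor Itgam in Ediff.

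The summed level of 11 mast cell and basophil markers moved against the 3 genes in EryCP and after CD34 loss and with them in Ediff (Serpinf1 by the first probe only). It went from 8.11 to 8.55 in CR Sca1lo to 9.87 to 10.3 in EryCP, and from 8.80 to 8.86 in CD34+ CD103- cells to at least 10 in CD34- CD103- cells, and then to 9.26 to 9.33 under Epo. In Ediff it was 3.76 to 4.10, beside at least 10 in the EryCP repeat, and 9 of 11 markers fell (16.9% of all genes). Of these 11 markers 9 rose after CD34 loss and 8 fell under Epo. Erythroid markers rose after CD34 loss (8 of 12), and 2 of 12 fell under Epo, Gata1 by 0.68 and Kel by 1.54. Over all genes 5.69% rose after CD34 loss and 1.91% fell under Epo. Fibroblasts are known to make Serpinf1, and none of 10 fibroblast and stromal markers was called by limma in CR Sca1lo against Sca1hi, in EryCP against CR Sca1lo, after CD34 loss or under Epo in the third set. Of those 10 markers 0, 0, 2 and 0 had an unadjusted p under 0.05. Over all genes 0.687% to 6.85% were called in each direction there, so 0 of 10 is near that share. Against CD34+ CD103- cells 1 of 10 fell in the Epo cells, beside 2.94% of all genes. Of 8 such markers measured in Ediff 4 rose and 1 fell, beside 39.8% and 16.9% of all genes. The part of these other lineages in the levels of Slco3a1, Il15 and Serpinf1 was not tested.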

How the data were processed

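RNA of 26 samples was measured on 1-colour Agilent arrays. Spots were quantified with Agilent Feature Extraction 10.1.1.1 (15 arrays) and 10.7.1.1 (11 arrays), per the file headers, which give processed signals as intensity after background subtraction. The authors' deposited value table holds log2 values. Set against the scanner files, it tracked the median signal of sets 1 and 2 (lowest r 0.995 and 0.997) and the processed signal of the third set (lowest r 0.9998). Its column medians run from 7.09 to 7.29, and how it was normalized is not given here.

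Control spots (1639 of the design) and spots marked as outlying (48 to 446 per array) were left out, spots of 1 probe averaged, and the log2 processed signal scaled to each array's 75th percentile. The scanner files carry no usable symbol column, so probes were named by accession through the platform annotation: 27071 of 41174 probes have a symbol, 14103 have none, and 10 differ between 2 design tables. To be kept, a probe needed at least 0.5 of its spots well above background, and this on every array of some group. It also had to be measured on at least 2 arrays of each group. Where a gene has several probes, the one with the highest mean over the set stands for it; for Serpinf1 that is the second probe in the second set only. Each set was fitted alone with limma 3.58.1 (R 4.3.3), with Benjamini-Hochberg adjustment over 26191, 24463 and 27075 genes, and called at an adjusted p under 0.05. Figures used matplotlib 3.10.9.

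The genes, lists and comparisons were chosen with earlier results of these data known. Named genes are all probes of the 3 genes with Cd34, up to 3 called genes with the largest change per list and comparison, the 5 most correlated genes, and 3 chromosomal neighbours a side; Il15ra, Il2rb, Pnpla2, Mpo, S100a8, S100a9, Gata1 and Kel were named after their values were seen. Of the list genes, 8 matched no symbol. Settings tried were slide as a block, normexp, quantile normalization, no filter, the value table, a trended and robust variance, 1 fit of all arrays, each array left out, the other Serpinf1 probe and, chosen after seeing the data, the marked Slco3a1 spot kept. The fit was tested on simulated data. The number of arrays limits the precision.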

Additional observations from a re-analysis of the deposited data

Results flagged for a closer look

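Cd34 in CD34- CD103- cells had 1 array away from the others: array 3 stood at 4.59 and the other arrays at 5.17 to 5.25, a gap of 0.882 of the whole range, above the limit for 4 samples. Groups of 4 arrays were looked at for each of the 4 probes of the 3 genes and for Cd34, the other groups stayed within the limit, and chance gives about 1 in 20.

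Opposite directions under Epo appeared in the second and the third set. Every Ediff array lay below the EryCP repeat and every Epo array of the third set above CD34- CD103- cells for Slco3a1 (log2 differences -4.71 and 1.01), for the first Serpinf1 probe, A_51_P517075 (-3.755 and 1.035), and for Cd34, which was not well above background in Ediff and at least 73-fold lower there, and 0.70 higher on the log2 scale in the Epo cells of the third set. The difference between the sets was not tested.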

How the results depend on the processing

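The tested differences of CR Sca1lo against Sca1hi kept their direction under every setting tried, but not their side of the threshold. Slco3a1 was called under 4 of 13 settings: slide as a block (0.59, adjusted p = 0.00528), quantile normalization (0.60, adjusted p = 0.0117), the deposited value table (0.63, adjusted p = 0.00993) and all 26 arrays in one fit (0.59, adjusted p = 0.0153), all by limma. Serpinf1 was called only with slide as a block (-0.43, adjusted p = 0.0357, limma), of 15 settings. Il15 kept its call under 5 of 13 settings and lost it under normexp (0.43, adjusted p = 1), quantile normalization (0.97, adjusted p = 0.253), the deposited value table (0.88, adjusted p = 0.141) and a trended, robust variance (0.95, adjusted p = 0.0644), all by limma. With each array left out in turn Il15 ranged from 0.83 to 1.08 (limma adjusted p from 0.0309 to 0.108), Slco3a1 from 0.48 to 0.70 (0.204 to 0.459) and Serpinf1 from -0.56 to -0.32 (0.433 to 1). The cause of these shifts was not tested.

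Of 260 values for the described differences 237 moved by less than 1 SD of the replicates, 22 by more, and 1 reversed: Il15 in Ediff against the EryCP repeat, 0.36 under normexp, beside -0.74 in the value table and -3.56 under quantile normalization. The 237 include values that could not move, from the lifted filter, the trended, robust variance and one fit of all arrays. A change of sign counted as reversed only for a called difference. Serpinf1 in Ediff, -0.01 by the second probe, reached 0.23 and was not counted so. Ediff signals of Il15 were not well above background, which limits this value. The Slco3a1 differences of the Epo cells kept their direction with the marked spot kept, a setting chosen after seeing the data.

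The number of genes called by limma was 948, 1303 and 1679 in the first set (CR Sca1lo against Sca1hi, EryCP against CR Sca1lo, EryCP against Sca1hi). It was 4663, 5328 and 5479 with slide as a block, 2, 75 and 97 under normexp, 2226, 3000 and 2912 in the value table and 3064, 3561 and 3713 in one fit. Quantile normalization gave 1614 and 2315 in the first and second of these. In Ediff 13855 genes were called, and 242 under normexp. Under Epo against CD34- CD103- cells 704 were called, 365 under normexp, 1092 with a trended, robust variance and 452 in one fit, and against CD34+ CD103- cells 1493, with 876 under normexp. With each array left out in turn the counts ran from 373 to 638, 748 to 1029 and 835 to 1326 in the first set, 9715 to 16972 in Ediff, 2509 to 3616 after CD34 loss, and 335 to 759 and 666 to 1370 under Epo. Of the calls in Ediff 70.2% were higher, against 59.5% under quantile normalization, 58.2% in the value table and 24% under normexp. The higher share in EryCP against CR Sca1lo was 54.8%, and 78.7% under normexp. The median of all genes there was -0.07, and -0.54 under normexp.

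No paired analysis was possible because the titles number the samples in a single run, so groups that are compared share no replicate number; the slide, which held arrays of several groups, was fitted as a block in its place, with the values above. Of 126 counts of calls in a list, 67 moved by over 1.5 times under normexp and 41 with slide as a block.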

Other observations

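The chromosomal neighbours of the 3 genes were taken 3 on each side, of which Rtn4rl1 beside Serpinf1 was not among the genes tested. Inpp4b, which encodes an inositol polyphosphate 4-phosphatase and is the nearest neighbour of Il15 at 197 kb on its lower side, changed in the opposite direction to Il15 in EryCP and after CD34 loss. It rose in EryCP against CR Sca1lo by 1.63 ± 0.17 (SE, adjusted p = 0.00104, limma) and after CD34 loss by 1.11 ± 0.12 (adjusted p = 0.000124, limma), and it fell under Epo by 0.78 ± 0.13 (adjusted p = 0.00868, limma) and in Ediff by 1.76. On the other side, Zfp330 at 360 kb was not called in any of these comparisons. Rnf150, at 460 kb on that side, fell in Ediff by 3.35 ± 0.09 (10.2-fold, adjusted p = 3.44e-06, limma) and was not called in the other comparisons. Il15 was at least 1.8-fold lower in Ediff by the processing used here, but not under normexp. None of the 6 neighbours of Slco3a1 (St8sia2, Fam174b, Chd2, Sv2b, Akap13 and Klhl25) was called outside Ediff, where Akap13 fell by 1.41 ± 0.15 (adjusted p = 0.000608, limma), Chd2 fell by 0.35 (adjusted p = 0.0415, limma) and Klhl25 rose by 0.77 (adjusted p = 0.000629, limma). Beside Serpinf1, Smyd4 at 4.32 kb fell after CD34 loss by 0.34 ± 0.09 (adjusted p = 0.0284, limma), the direction of Serpinf1, and Wdr81 at 18.3 kb rose by 0.37 ± 0.09 (adjusted p = 0.0278, limma). In Ediff Gab1 (1.13) and Tbc1d9 (0.91) beside Il15 also rose. So did Wdr81 (1.45), Serpinf2 (0.68), Tlcd2 (0.67) and Rpa1 (0.57) beside Serpinf1. Over all genes 39.8% were called higher and 16.9% lower in Ediff. The shares in the other comparisons lay between 0.687% and 6.85% in each direction. Neighbours were a list of their own and no test compared them with other gene pairs.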
